A study of Mus musculus with 5 samples.

Results

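The splicing factor genes described here are 56 of the 55335 genes in a table of transcript levels of mouse haematopoietic stem cells (HSCs). They were chosen by name alone, as the genes whose symbols begin with Srsf and a digit, Hnrnp, Sf3a or Sf3b and a digit, or Snrp, together with U2af1, U2af2 and Zrsr2, and 4 names marked -ps were left out. This gave 11 Srsf, 20 Hnrnp, 9 Sf3a and Sf3b, 13 Snrp and 3 U2af or Zrsr2 genes. The rule uses no measured value, though it was set with earlier results of these data known. The name rule leaves out Snrnp70, Snrnp200 and other spliceosome genes, which are described further on.

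HSCs (KSL CD48- CD150+) were sorted from the bone marrow of mice aged 3 weeks and labelled C57BL/6J, and 5 libraries of polyadenylated RNA were made. The 3 wild-type libraries were compared with 2 RankCre-ki libraries, from mice that carry 1 RankCre knock-in allele and, at the Csf1r locus, 1 floxed and 1 deleted allele (Rank cre/+;Csf1r fl/-). The comparison asks how HSCs differ when the animal lacks embryonic macrophages and osteoclasts. According to the study, RankCre recombines in embryonic macrophages and is not expressed in HSCs, so the floxed allele is not meant to be removed in the sorted cells themselves, whereas the deleted Csf1r allele is carried by all of their cells. The wild-type animals carry none of these alleles according to the label. The methods state that the Csf1r- line was held on C3H/HeJ, so the RankCre-ki animals may carry C3H/HeJ segments, and strain background and genotype cannot be told apart. Library names end in a number, taken here as a cell count, which was 90, 90 and 80 for wild-type replicates 1 to 3 and 80 and 86 for RankCre-ki replicates 1 and 2. No source used here says whether a library holds cells of 1 animal or of a pool, so p-values measure only the spread between these libraries.

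Pre-mRNA splicing removes introns and joins exons. U1 and U2 small nuclear ribonucleoproteins (snRNPs), each built on a ring of Sm proteins, mark the ends of the intron, and U2AF and the SF3a and SF3b complexes place U2 at the branch site. SR proteins, encoded by Srsf genes, mostly bind exons and promote splice site use, and hnRNP proteins coat nascent RNA and often oppose it. Mutations of SF3B1, SRSF2, U2AF1 and ZRSR2 recur in human myelodysplastic syndromes, which arise in HSCs, so these genes are of particular interest in this cell type.

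The values are TPM, which scale each library to 1000000 transcripts after correction for length, so levels of different genes can be set side by side. TPM keep no sequencing depth, so only the scatter among libraries shows how precise a level is. All 10 HSC markers examined were above 0 in all libraries (summed 690 to 1192 TPM in wild-type, 957.5 to 1548 in RankCre-ki). Between 9021 and 11084 genes reached 1 TPM in wild-type, against 12801 and 16386 in RankCre-ki, and mitochondrial genes took 14.7 to 21.02% of wild-type TPM against 8.21 and 10.7%. RankCre-ki replicate 2 is labelled female, but its sex-linked transcripts (Xist 0.0229 TPM, Eif2s3y 62.5 TPM) resembled those of male-labelled wild-type replicate 1 (0.0273 and 41.6 TPM) and not those of the other 3 libraries. These 2 libraries also form name series 1, the other 3 name series 2, and the study's methods describe different tagmentation kits in sets of this size and composition. Name series, sex-linked transcripts and, by that inference, kit therefore cannot be told apart. For the counts, the medians, the members whose groups do not overlap and other members that leaving out RankCre-ki replicate 2 moves most, values without it are given too.

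For 48 of the 56 members a promoter was found in the RefSeq table for build GRCm38.p6, with 66 promoters in all. The 250 bases upstream of each start were searched on both strands for 4 short sequences. The GC box, spelled GGGCGG, was found in 68.2% of member promoters and in 32.7% of the 32851 promoters of the table. The core bound by ETS factors, spelled CCGGAAG, was found in 28.8% of member promoters, of 15 genes, against 6.91% of all. The CCAAT box, searched by those letters alone, was present in 43.9% against 33.8%. The TATA box, spelled TATAAA, was present in 9.09% against 12.4%. None of these spellings holds another, but matches can share end bases. These shares describe letters in a window and do not show binding. The 100 bases directly upstream of the starts of Srsf5 and Srsf2 are printed below on the gene's own strand. Of the 8 members whose genotype groups do not overlap, Srsf5 is one with RankCre-ki above wild-type and Srsf2 the one with RankCre-ki below it. Capitals mark the searched sequences on either strand. In Srsf5 the reverse-strand GC box and the ETS sequence that follows it share 1 base.
Srsf5 promoter (chr12:80945399-80945498, GRCm38.p6, plus strand): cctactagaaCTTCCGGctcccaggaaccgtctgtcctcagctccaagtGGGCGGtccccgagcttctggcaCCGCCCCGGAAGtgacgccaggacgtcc
Srsf2 promoter (chr11:116853095-116853194, GRCm38.p6, minus strand): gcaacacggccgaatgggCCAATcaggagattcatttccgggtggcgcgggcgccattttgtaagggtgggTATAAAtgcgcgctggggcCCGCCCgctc
The Srsf5 stretch holds GC box and ETS matches on both strands and no TATA box match. The Srsf2 stretch holds matches to the TATA box, the CCAAT box and, on the reverse strand, the GC box, and none to the ETS core. All positions given here are on GRCm38 (mm10).

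Most members were abundant in these cells, with a median level of 111 TPM against 10.4 TPM for all tested genes. Some were not, among them Srsf12 (mean 2.49 TPM), U2af2 (7.96 TPM) and Snrpn (8.61 TPM). Of 55 tested members, 48 (87.3%) were at 1 TPM or more in all libraries, against 42.1% of all 13981 tested genes, and 17 (30.9%) were at 100 TPM or more throughout, against 5.25%. A gene was tested when it reached 1 TPM in at least 2 libraries. The remaining member, Snrpert, a processed pseudogene related to Snrpe, was listed at 0 in all libraries. Many members were also even across libraries: the highest library was less than 2 times the lowest for 11 members (20%), against 4.40% of all tested genes. That comparison was not matched on level. The member with the highest level was Snrpe in wild-type replicate 1, Hnrnpk in wild-type replicates 2 and 3, and Hnrnpa2b1 in both RankCre-ki libraries.

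**Figure D1:**
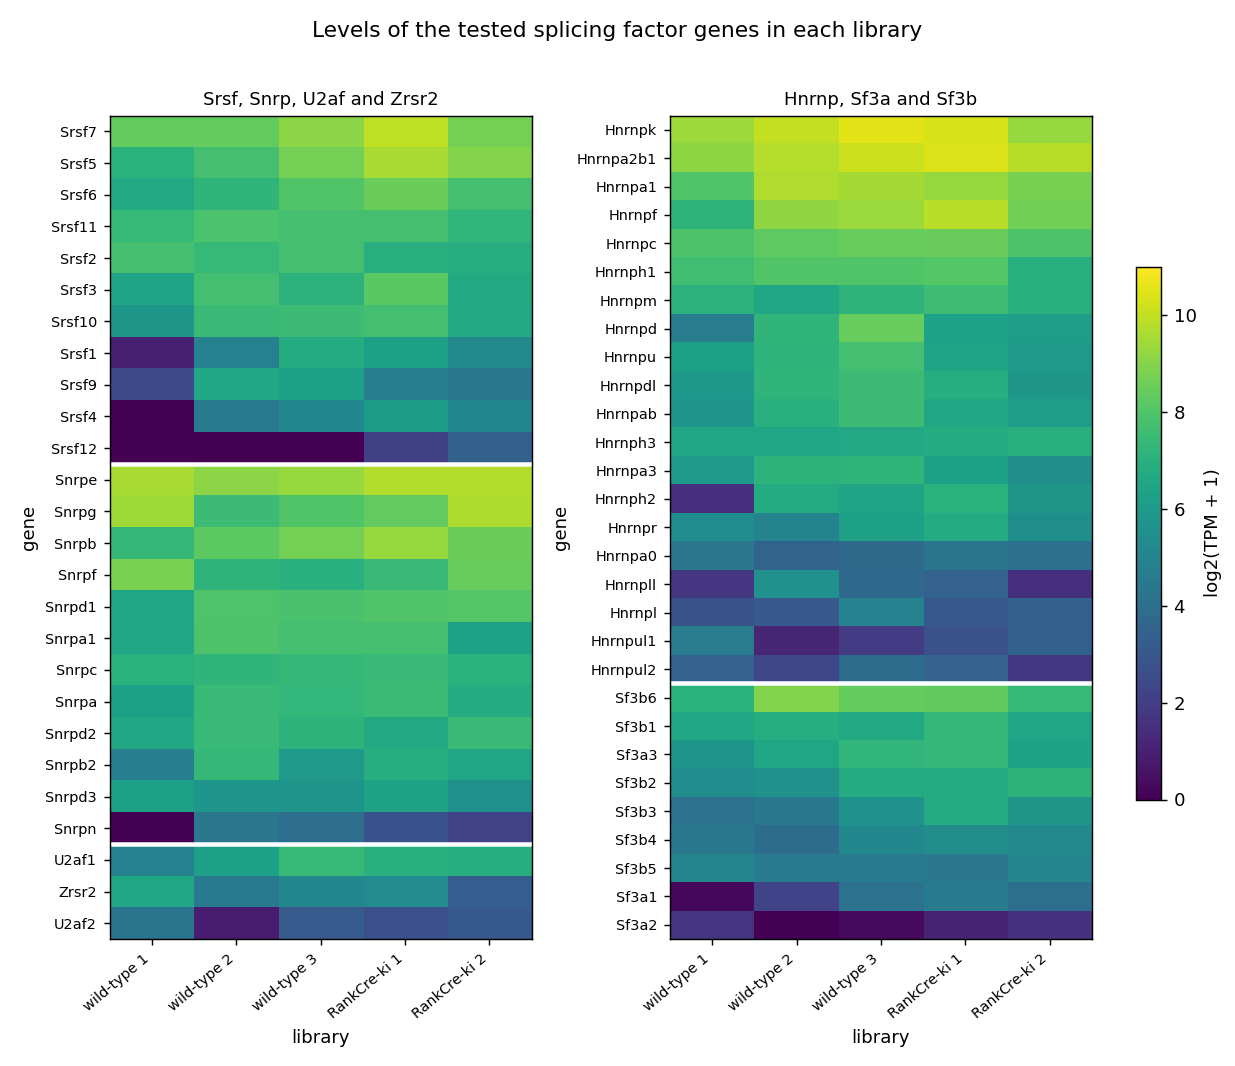
Levels of the 55 tested members, as log2(TPM + 1), in each of the 5 libraries (columns); rows are genes ordered by mean level within family, and white lines part the families. Wild-type replicate 1 is the darkest column for 29 members, among them Srsf1, Srsf4, Hnrnph2 and Snrpn, and Srsf12 is near 0 in all wild-type libraries.

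No splicing factor gene passed the threshold between the genotypes. In limma's moderated test on log2(TPM + 1), where a call needed an adjusted p up to 0.1 and a log2 fold change beyond 2, 0 of 55 members were called, and the smallest adjusted p among them was 0.521 (Benjamini-Hochberg over all tested genes). In this fit the background is as empty, since 0% of all 13981 genes were called. The study, which fitted a model of counts to these HSCs, reported genes past this threshold in both directions. The TPM used here allow no such model. At an unadjusted p under 0.05, 2 members were higher in RankCre-ki (Srsf12 and Srsf5, 3.64% of the tested members) and 0 were lower, against 6.34% and 0.529% of all genes. Srsf12 met the filter on low values only through the RankCre-ki libraries, where it is high, so its test is not independent of its difference. With no filter, 0 members had a limma p under 0.05. Without RankCre-ki replicate 2, Srsf12 alone was past that p. Both shares are below those of all genes.

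Most fold changes were small and positive, as they were across the table. The log2 fold change was above 0 for 35 members (63.6%), against 72.3% of all genes, and its median was 0.25, against 0.52 over all genes. The values depend on the scaling. Under median-ratio scaling, which assumes that most genes are level, 20 of the 55 were above 0 and the median was -0.23, with 0.16 over all genes. Without RankCre-ki replicate 2 the median was 0.37. The members' median minus that of all genes was -0.27 on the log2 scale as deposited and -0.39 after median-ratio scaling, but 0.24 after quantile normalization.

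For 7 members (12.7%), against 18.8% of all genes, each RankCre-ki library exceeded every wild-type library, and for 1 member (1.82%), against 3.71%, each lay below. The balance turned with the processing, so the counts over all 13981 genes are given beside it. Under median-ratio scaling 3 members lay above and 7 below, against 1700 and 1241 of all genes. Under quantile normalization the counts were 9 and 5, against 1623 and 1561. Without wild-type replicate 1 they were 12 and 13, against 4136 and 1724. Without RankCre-ki replicate 1 they were 9 and 13, against 4562 and 1685. Without RankCre-ki replicate 2 they were 26 and 2, against 4719 and 1062. The 7 were Srsf12, Srsf5, Sf3b3, Sf3b4, Snrpd1, Snrpe and Hnrnph3, and the 1 was Srsf2. Each of these has its values below.

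**Figure D2:**
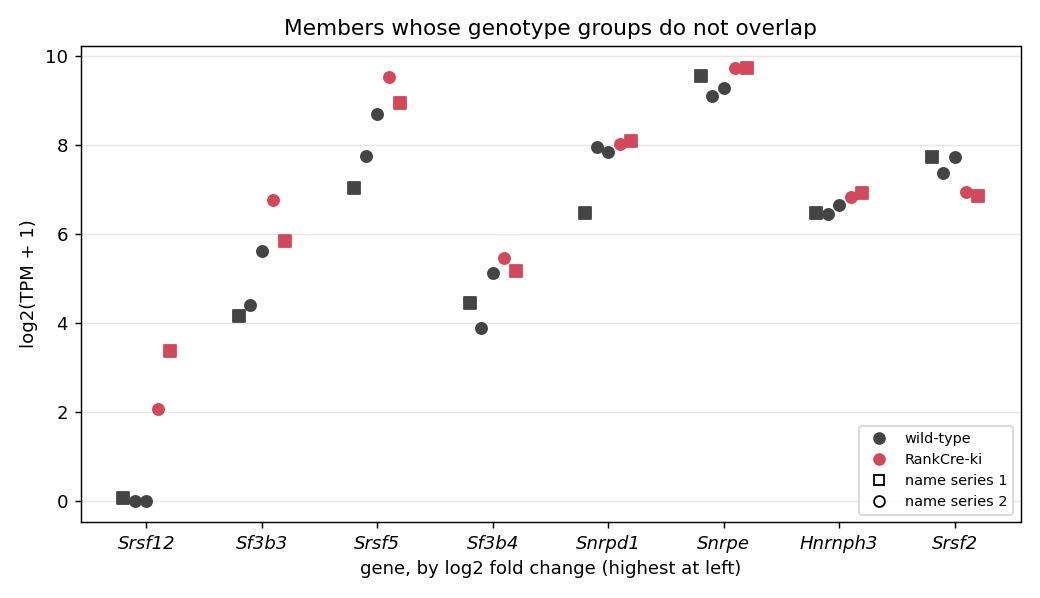
log2(TPM + 1) of the 8 members whose RankCre-ki libraries lie all above or all below the wild-type libraries; each point is 1 library, colour gives the genotype and shape the name series. The gap between the groups is widest for Srsf12, where the wild-type points sit at 0 to 0.035 TPM, and narrow for Sf3b4, Snrpd1, Snrpe and Hnrnph3.

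Of the SR protein genes, Srsf12 and Srsf5 were higher than all wild-type libraries in both RankCre-ki libraries, and Srsf2 was lower. Srsf12 (chr4:33208991-33233340, plus strand) encodes an SR-like protein known to counteract other SR proteins in splice site choice. It was at 0.035 TPM in wild-type replicate 1, was listed at 0 in replicates 2 and 3, and was at 3.18 and 9.25 TPM in RankCre-ki. Its log2 fold change on the log2(TPM + 1) scale was 2.69 ± 0.79 (SE). The unadjusted limma p was 0.00931 and the adjusted p 0.521, for a gene that was tested only because both RankCre-ki libraries exceed 1 TPM. Both libraries of the knock-in are thus above the wild-type range, at levels that are low for this family. Without RankCre-ki replicate 2 the fold change was 2.05 with an adjusted limma p of 0.128, and without RankCre-ki replicate 1 it was 3.34 with an adjusted p of 0.0439. That last value passes the threshold, and in that fit 1 RankCre-ki library stands alone and is assumed to vary like the wild-type libraries. With no filter on low values the unadjusted limma p was 0.0563.

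Srsf5 (chr12:80945504-80950507, plus strand), an SR protein that binds exonic enhancers and whose promoter is printed above, was far more abundant. It was at 130, 217 and 416 TPM in wild-type and at 745 and 495 TPM in RankCre-ki. The groups do not overlap, but wild-type replicate 3 lies nearer to RankCre-ki replicate 2 than to wild-type replicate 1. This gave a log2 fold change of 1.41 ± 0.55 (SE) at a limma p of 0.034 (adjusted p 0.636). Without RankCre-ki replicate 2 it was 1.71 with a limma p of 0.102, and after median-ratio scaling the p was 0.0944. Of the stretches of 31 bases in its exons, 14.2% also occur in other genes.

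Srsf2 (chr11:116849901-116853094, minus strand), also known as SC35, is the SR protein gene of the family that is recurrently mutated in myelodysplasia. It was at 212, 164 and 213 TPM in wild-type and at 123 and 115 TPM in RankCre-ki. It is the only member with both RankCre-ki libraries below all wild-type libraries, and its wild-type values are even. Its log2 fold change of -0.71 ± 0.43 (SE) did not pass the test, at a limma p of 0.140 (adjusted p 0.881). Without RankCre-ki replicate 2 it was -0.66, and after median-ratio scaling it was -1.21 with a limma p of 0.0222. Srsf2 lies within Mettl23 on the opposite strand, no source used here says whether strand was used, and 23.1% of its 31-base stretches occur in other genes, so its level is uncertain.

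The other SR protein genes showed overlapping groups. Srsf7, the most abundant of the family, was at 334, 339 and 547 TPM in wild-type and 988 and 409 in RankCre-ki (log2 fold change 0.68). Its fold change was 0.047 without RankCre-ki replicate 1 and 1.32 without RankCre-ki replicate 2. Srsf3, an SR protein that also acts in RNA export, was at 85, 207 and 132 TPM in wild-type and 293 and 100 in RankCre-ki (0.37). Srsf1, the founding SR protein, was at 0.926, 27.5 and 111 TPM in wild-type and at 75.4 and 36.3 in RankCre-ki, a log2 fold change of 1.54 ± 1.54 (SE). Its spread within wild-type exceeds the difference between the groups, and without wild-type replicate 1 the fold change was -0.08. Srsf4, which is listed at 0 in wild-type replicate 1 and stood at 22.5 to 62.8 TPM in the other 4 libraries, has the same weakness (2.31 ± 1.54), and 41.0% of its 31-base stretches occur elsewhere. Over the 11 Srsf genes, 8 (72.7%) had a log2 fold change above 0, near the 72.3% of all genes, and the median was 0.68. That median was 0.057 without wild-type replicate 1, 0.047 without RankCre-ki replicate 1 and 1.23 without RankCre-ki replicate 2.

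The SF3 genes, which encode the protein complexes of the U2 snRNP, had 7 of 9 fold changes above 0 (77.8%, against 72.3% of all genes) and a median of 0.65, against 0.52. Sf3b3 (chr8:110810239-110846787, minus strand), a large scaffold subunit of SF3b, was at 16.8, 20.1 and 48.1 TPM in wild-type and at 108 and 56.3 TPM in RankCre-ki. The lower RankCre-ki library lies just above the highest wild-type library. Its log2 fold change of 1.58 ± 0.73 (SE) had a limma p of 0.0617 (adjusted p = 0.767), and without RankCre-ki replicate 2 it was 2.04. Sf3b4, a subunit that contacts RNA near the branch site, was at 20.7, 13.8 and 33.6 TPM in wild-type and at 42.9 and 35.1 in RankCre-ki (0.84 ± 0.74, and 0.98 without RankCre-ki replicate 2), and 51.2% of its 31-base stretches are shared with other genes. Sf3b1, the HEAT repeat subunit that holds the branch site helix, was at 93.2, 114 and 101 TPM in wild-type and at 162 and 90.5 in RankCre-ki. The groups overlap, with RankCre-ki libraries at both ends, and the log2 fold change was 0.24 ± 0.50 (SE). Sf3b6, the small subunit next to the branch site adenosine and the most abundant of the family, was at 129, 481 and 341 TPM in wild-type and at 313 and 164 in RankCre-ki (-0.29).

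The Snrp genes were the only family of the members whose summed level did not overlap between genotypes. Their TPM summed to 2623, 2389 and 2441 in wild-type and to 3115 and 3266 in RankCre-ki, a mean of 2484 ± 123 (SD, n = 3) against 3190 ± 107 (SD, n = 2). The groups do not overlap, and they stayed apart when any 1 of the 13 genes was left out. Without Snrpb they barely did, at 2464 TPM in wild-type replicate 1 and 2486 in RankCre-ki replicate 1. They overlapped after median-ratio scaling, at 3132, 2767 and 2039 against 2254 and 2454. No p is given for a sum over members. The 12 tested Snrp genes taken singly had a median log2 fold change of 0.24, against 0.52 over all genes, with 9 above 0. Past an unadjusted limma p of 0.05 there were 0. Under median-ratio scaling the median was -0.26, against 0.16 over all genes, with 4 of the 12 above 0.

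Within the family the 8 genes of Sm proteins carried most of the sum, with 2302, 1667 and 1857 TPM in wild-type and 2437 and 2859 in RankCre-ki. Snrpe was at 753, 549 and 628 TPM in wild-type and at 859 and 849 in RankCre-ki (0.42 ± 0.36, SE, and 0.43 without RankCre-ki replicate 2), and the RankCre-ki values are nearly equal. Snrpd1 was at 87.4, 248 and 229 TPM in wild-type and at 261 and 273 in RankCre-ki (0.64 ± 0.55, and 0.61 without RankCre-ki replicate 2), so that all libraries but wild-type replicate 1 are close together. Its fold change was 0.16 without wild-type replicate 1, 0.91 without wild-type replicate 2 and 0.13 under median-ratio scaling. Snrpb, which encodes the SmB proteins, was at 159, 298 and 413 TPM in wild-type and at 629 and 365 in RankCre-ki (0.83 ± 0.52). Its groups overlap, and the fold change was 0.43 without RankCre-ki replicate 1 and 1.22 without RankCre-ki replicate 2. Snrpg was at 692, 185 and 257 TPM in wild-type and at 329 and 812 in RankCre-ki (0.69 ± 0.66), but its fold change was 0.036 without RankCre-ki replicate 2. Its high libraries are wild-type replicate 1 and RankCre-ki replicate 2, which share a name series and not a genotype. Snrpf was likewise highest in those 2 libraries, at 441, 141 and 127 TPM against 174 and 342, but 92.1% of its 31-base stretches lie in other genes, chiefly Ccdc38, which overlaps it on the opposite strand. Snrpn, the imprinted relative of Snrpb best known from neurons, was at 0.022, 19.5 and 14.4 TPM in wild-type and at 5.78 and 3.44 in RankCre-ki (-0.32 ± 1.62), and 34.5% of its stretches are shared.

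**Figure D3:**
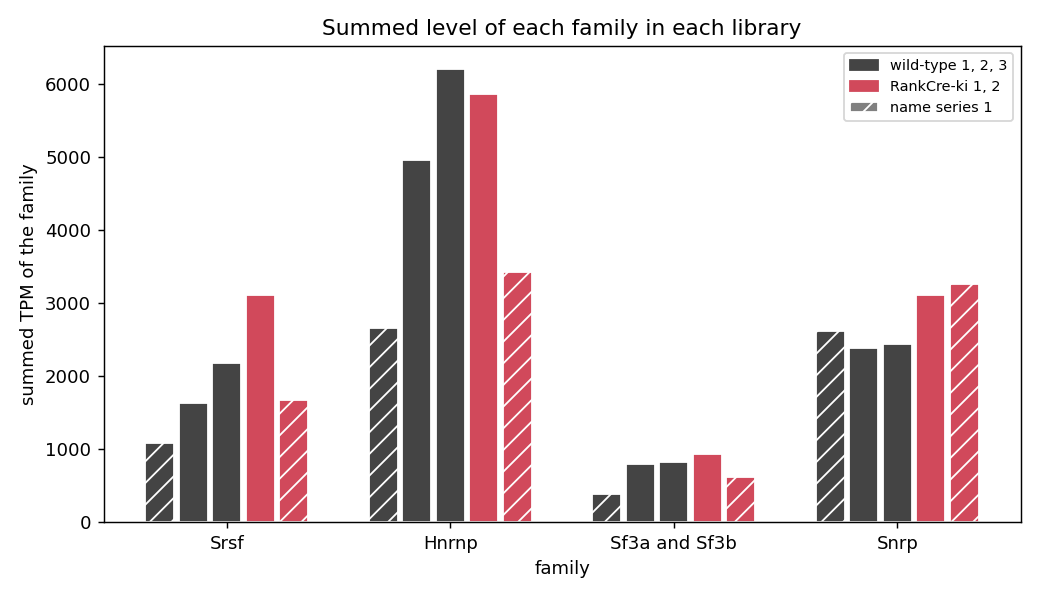
Summed TPM of 4 families in each library; bars are libraries in the order wild-type 1, 2, 3, RankCre-ki 1, 2, and hatching marks name series 1. For Snrp the RankCre-ki bars (3115 and 3266) exceed the wild-type bars (2389 to 2623), whereas for Hnrnp the hatched bars of series 1 (2666 and 3431) are the lowest.

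The hnRNP genes had the lowest median log2 fold change of the 4 larger families, -0.12, with 9 of 20 above 0 (45.0%, against 72.3% of all genes) and 0 past an unadjusted limma p of 0.05 in either direction. The median was -0.63 under median-ratio scaling, where 2 were past that p, and -0.50 without wild-type replicate 1, where 3 were. It was above 0 without RankCre-ki replicate 2 (0.22), without wild-type replicate 3 (0.17) and with name series as a block (0.03). Hnrnpk, which binds C-rich RNA and DNA, was at 671, 1027 and 1509 TPM in wild-type and at 1273 and 627 in RankCre-ki (-0.18 ± 0.49, SE). Hnrnpa2b1 was at 561, 887 and 1161 TPM in wild-type and at 1366 and 915 in RankCre-ki (0.42 ± 0.44). Its fold change was 0.13 without RankCre-ki replicate 1 and 0.71 without RankCre-ki replicate 2. Hnrnpa1, which opposes SR proteins at many exons, was at 259, 815 and 740 TPM in wild-type and at 621 and 434 in RankCre-ki (-0.05 ± 0.56). Other genes share 29.9% of its 31-base stretches. In these 3 genes the groups overlap widely. Hnrnpu, a nuclear matrix protein that binds RNA and chromatin, was at 74.7, 141 and 207 TPM in wild-type and at 85.1 and 61.7 in RankCre-ki (-0.83 ± 0.58), and wild-type replicate 1 lies between the RankCre-ki libraries. Its fold change was -1.33 under median-ratio scaling (limma p of 0.0313) and -1.22 without wild-type replicate 1 (limma p of 0.0339). It was smaller, -0.49, without wild-type replicate 3 (limma p of 0.453), and -0.60 without RankCre-ki replicate 2. Hnrnph3 was the only member of the family with no overlap, at 87.8, 86.7 and 99.2 TPM in wild-type against 113 and 120 in RankCre-ki (0.35 ± 0.46, and 0.31 without RankCre-ki replicate 2). Its adjusted limma p was 0.982. The Hnrnp median minus that of all genes was -0.63 on the log2 scale, and it stayed below 0 after median-ratio scaling (-0.78) and quantile normalization (-0.27).

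The genes that read the 3′ end of the intron had overlapping groups. U2af1, which reads the AG dinucleotide there, was at 28, 73.6 and 165 TPM in wild-type and at 127 and 115 in RankCre-ki (0.78 ± 0.75, SE). Leaving out wild-type replicate 1 gave a fold change of 0.13, and leaving out replicate 3 gave 1.39. U2af2, which binds the polypyrimidine tract, was at 17.9, 0.828 and 8.01 TPM in wild-type and at 5.38 and 7.72 in RankCre-ki (0.14 ± 1.42). These partner subunits were not measured at like levels, and 25.8% and 21.4% of their 31-base stretches occur in other genes. Zrsr2, which serves the minor spliceosome and is encoded on chromosome X, was measured at 88.3, 23.2 and 33.4 TPM in wild-type and at 38.1 and 8.86 in RankCre-ki (-1.10 ± 0.91). Without RankCre-ki replicate 2 its fold change was -0.11.

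All members together took 0.690 to 1.32% of a library. They summed to 6898, 9874 and 11870 TPM in wild-type (9547 ± 2502, SD, n = 3) and to 13190 and 9122 TPM in RankCre-ki (11160 ± 2877, SD, n = 2), and the groups overlap. The makeup of that sum varied by name series: Hnrnp genes took 38.7% and 37.6% of member TPM in the libraries of series 1 and 44.5 to 52.4% in series 2, and Snrp genes took 38.03% and 35.8% in series 1 and 20.6 to 24.2% in series 2.

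The change between genotypes was then taken within each name series, RankCre-ki replicate 2 minus wild-type replicate 1 in series 1 and RankCre-ki replicate 1 minus the mean of wild-type replicates 2 and 3 in series 2. RankCre-ki was higher in both series for 27 members (49.1%), against 44.5% of all genes, and lower in both for 8 (14.5%), against 12.9%. The median change was 0.35 in series 1 and 0.38 in series 2, against 0.53 and 0.40 over all genes. Srsf12 (3.31 and 2.06), Sf3b3 (1.69 and 1.75) and Srsf5 (1.93 and 1.31) were higher in both, and Srsf2 was lower in both (-0.88 and -0.59). Zrsr2 differed in sign, at -3.18 and 0.44, as did Snrpn (2.12 and -1.39) and Srsf9 (2.00 and -1.71). With name series as a block in the limma fit, 6 members were higher at an unadjusted p under 0.05 (Hnrnpf, Sf3b3, Snrpb, Srsf12, Srsf5 and Srsf6; 10.9%) and 0 were lower, against 8.89% and 1.19% of all genes. The smallest adjusted p among members was then 0.160, for Srsf12, with the same limit from the filter.

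**Figure D4:**
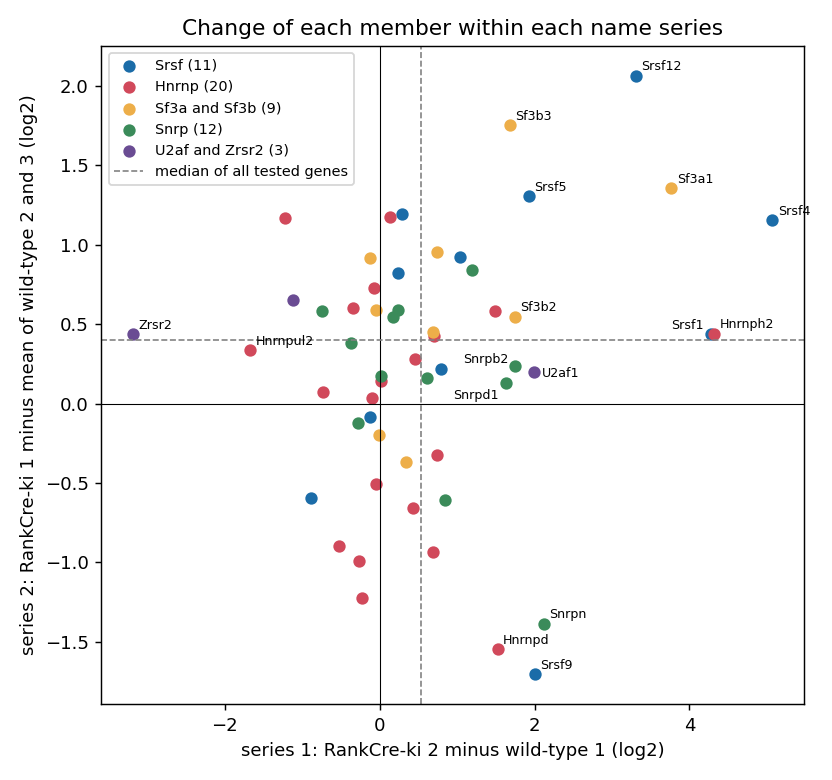
Change of each of the 55 tested members, on the log2(TPM + 1) scale, within name series 1 (horizontal) and within name series 2 (vertical); colour gives the family, dashed lines the medians of all tested genes (0.53 and 0.40). The upper right holds 27 members and the lower left 8, and Srsf4, Srsf1 and Hnrnph2 lie far to the right, where wild-type replicate 1 was near 0 for each.

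Name series set apart more of these genes than genotype did. The term for series was examined after the values were seen. Both series 1 libraries lay below all series 2 libraries for 23 members (41.8%), against 15.9% of all genes, and above all of them for 5 (9.09%), against 17.1%. In limma with both terms, 16 members (29.1%) were higher in series 2 at an unadjusted p under 0.05 and 2 (3.64%) were lower, against 7.7% and 12.3% of all genes. With the adjusted p held to 0.1, 5 members differed (9.09%), against 8.34% of all genes. Of these, Hnrnpf was higher in series 2 by 1.72 on the log2 scale (limma, adjusted p = 0.0816), Srsf10 by 1.42 (adjusted p = 0.0954) and Snrpa1 by 1.32 (adjusted p = 0.0932). The level of Hnrnpf is uncertain, since 66.2% of its 31-base stretches occur in other genes. Snrpg, at a series 2 minus series 1 difference of -1.51 (adjusted p = 0.0816), and Snrpf, at -1.396 (adjusted p = 0.0892), were lower. Among the families, 12 of 20 Hnrnp genes lay lower in both series 1 libraries. The members were lowest in wild-type replicate 1 in 29 cases (52.7%, against 37.6% of all genes) and highest in RankCre-ki replicate 1 in 23 (41.8%, against 24.9%).

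**Figure D5:**
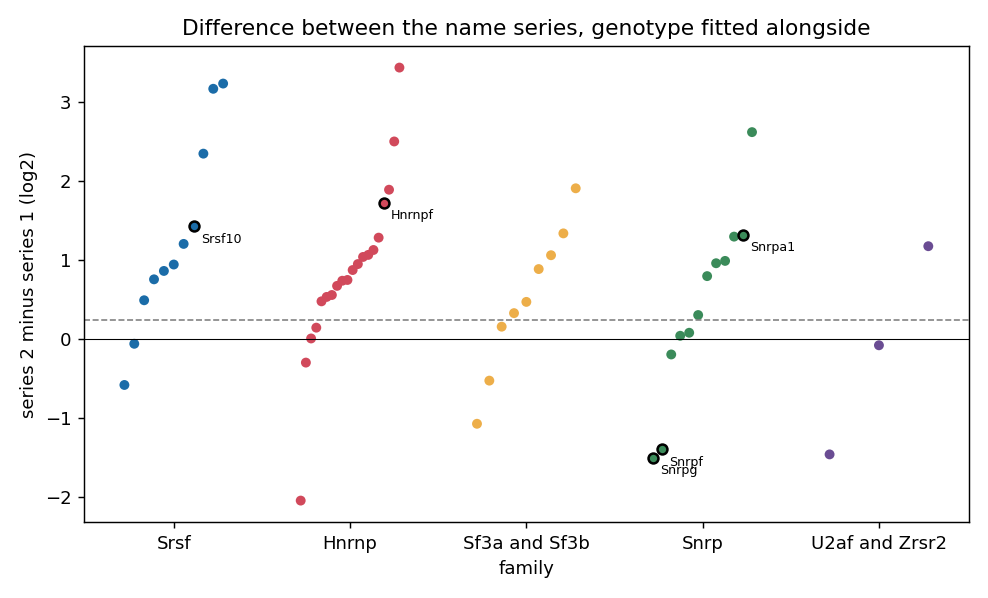
Difference between the name series (series 2 minus series 1, log2) for each tested member, by family, with genotype fitted alongside; black rings mark the 5 members with an adjusted p up to 0.1, and the dashed line gives the median of all tested genes (0.24). Most Hnrnp points lie above 0, whereas Snrpf and Snrpg lie near -1.4 and -1.5.

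Of the wider splicing machinery, 123 genes in 8 groups outside the name rule were examined, of which 122 were tested. None passed the threshold (0 called by limma), 2 were higher (1.64%, against 6.34% of all genes) and 0 were lower at an unadjusted p under 0.05, and the median log2 fold change was 0.32, against 0.52. In 20 of them (16.4%, against 18.8%) each RankCre-ki library exceeded every wild-type library, and in 8 (6.56%, against 3.71%) each lay below. The median log2 fold change was 0.37 for the other U1, U2 and tri-snRNP proteins (27 tested, 7 with RankCre-ki above wild-type throughout), 0.36 for the Prp19 complex and helicases (12), 0.35 for snRNP assembly (12), 0.35 for other splicing regulators (29), 0.44 for the exon junction complex and export (10), 0.10 for the minor spliceosome (7) and 0.08 for SR-related proteins and SR kinases (15). Elavl1, the RNA-stabilizing protein HuR, had the smallest p of the higher genes, at 44.4, 34.8 and 56.9 TPM in wild-type and 143 and 98.3 in RankCre-ki (1.396 ± 0.55, SE). Its limma test gave an adjusted p of 0.643. Zmat5, a protein of the minor spliceosome, had the smallest p of the lower genes, at 174, 125 and 117 TPM in wild-type and 78.3 and 49.2 in RankCre-ki (-1.12 ± 0.51). Its adjusted p in limma was 0.752. Snrnp70, the U1-specific protein, was at 38.4, 25.3 and 28.1 TPM against 52.1 and 68.4 (0.96 ± 0.62), with no overlap. Prpf8, the core of the spliceosome, was at 1.57, 9.47 and 33.9 TPM in wild-type and 23.5 and 11.1 in RankCre-ki (0.82 ± 1.31). Rbm39, a U2AF-like factor, was at 736, 587 and 594 TPM against 839 and 742 (0.31 ± 0.36). Ptbp1, the polypyrimidine tract binding repressor, was at 45.2, 0.0424 and 116 TPM against 93.3 and 58.3 (2.07 ± 1.78), so that 1 wild-type library sets its fold change. The LSm genes, whose products form Sm-like rings on U6 and other RNAs, were the group with a negative median (-0.30, 10 tested). Their summed TPM, 2199, 2221 and 2170 in wild-type and 1685 and 1825 in RankCre-ki, did not overlap either, with RankCre-ki below wild-type. That sum leans on Lsm7, the most abundant of them, at 1215, 689 and 679 TPM in wild-type and 367 and 674 in RankCre-ki. It was not taken again with any gene left out, and 4 of the 10 LSm genes had a log2 fold change above 0.

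Summed erythroid, lymphoid and granulocyte markers were higher in both RankCre-ki libraries, though few single markers were. Which cells these transcripts came from was not tested. Erythroid markers summed to 69.5 to 124 TPM in wild-type and to 253 and 683 in RankCre-ki. Of 5 such markers, 1 was higher in both RankCre-ki libraries. Lymphoid markers summed to 0 to 0.126 TPM against 4.61 and 19.1 (2 of 5 higher in both, Cd79a at 0), and granulocyte markers to 0 to 2.86 against 8.31 and 14.9 (1 of 5 higher in both, Elane and Ly6g at 0). Macrophage and osteoclast markers (15.2 to 52.3 against 31.1 and 51.6, Adgre1 at 0), megakaryocyte markers (60.4 to 178 against 149 and 170) and endothelial markers (53.6 to 92.7 against 51.6 and 81.1) overlapped, and stromal markers stayed at or below 1.27. Their part in the levels of the splicing factor genes was not tested. In bulk libraries, a change in the share of a cell type and a change in RNA per cell cannot be told apart.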

How the data were processed

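Full-length cDNA was made from polyadenylated RNA of the sorted HSCs, amplified and cut into libraries by tagmentation. The authors deposited 1 table of TPM per gene for 5 libraries (55427 rows, of which 92 spike-in rows at 0 were removed here). For their own test they aligned reads to mm10 with gsnap and counted fragments with featureCounts 2.0.1; bcl2fastq 2.20.0 is also named in the submitters' processing notes. The tool that made the TPM is not given in the sources used here. The table holds 179 values between 0 and 1e-06 TPM, too small for whole fragments, so the TPM came from an estimation that can share signal among paralogs, pseudogenes and overlapping genes. No depth, counting error or confidence interval can be had from TPM, and TPM is a share, so a gain of some genes lowers the rest.

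Values were analysed as log2(TPM + 1), a scale on which fold changes of low genes are understated. The 13981 genes that reached 1 TPM in 2 or more libraries were fitted with limma 3.58.1 in R 4.3.3 (lmFit, eBayes with trend, two-sided, no covariate, Benjamini-Hochberg over all tested genes). A call needed an adjusted p of at most 0.1 and a log2 fold change beyond 2 in either direction, the study's threshold. The code was tested on simulated data. Titles and treatment labels gave the groups. Positions, gene types and the 31-base stretches shared between genes were taken from GENCODE M21 (GRCm38), where 55154 of 55335 identifiers (99.7%) were found; the study's methods name Ensembl release 98. Promoters were taken from RefSeq.

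The members, the pathway lists and the rule for named genes were chosen with earlier results of these data known. The rule names 13 preset members, the 2 most abundant of each of the 4 larger families, from the members whose groups do not overlap up to 4 per direction by smallest p, and any listed at 0 throughout 1 group and at 1 TPM or more throughout the other, of which there were none. The pathway genes named are 4 preset ones and the gene with the smallest p in each direction. Srsf4, Srsf6, Srsf9, Srsf10, Sf3b4, Snrpa1, Snrpf, Hnrnpf, Hnrnph2 and Hnrnph3 were named after their values were seen, as was the pathway gene Lsm7. Alternatives were another pseudocount (0.1), 2 other filters (none, or 5 TPM in 2 libraries), median-ratio and quantile scaling, name series or replicate number as a block, and each library left out in turn. Rescaling to nuclear protein-coding genes was added after seeing the data.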

Additional observations from a re-analysis of the deposited data

How the results depend on the processing

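No member passed the threshold under any setting but 1: the count over the fits that leave out 1 library ran from 0 to 1, and the call was Srsf12 without RankCre-ki replicate 1. That fit called 304 of all tested genes, and in it the lone RankCre-ki library is assumed to vary like the wild-type libraries. The count at an unadjusted limma p under 0.05, which was 2 as reported, was 0 with no filter, 1 with the filter of 5 TPM, 4 under median-ratio scaling, 1 under quantile normalization, 6 with name series as a block, 1 after rescaling to nuclear protein-coding genes, and 1 to 6 with 1 library left out. The count of non-overlapping members (8) was 14 under quantile normalization and 10 to 28 with 1 library left out, where fewer libraries make overlap rarer; without RankCre-ki replicate 2 it was 28. The difference of summed TPM (1610) was -1665 under median-ratio scaling and ran from -424.8 without RankCre-ki replicate 1 to 3644 without RankCre-ki replicate 2. With 1 library left out, the members' median log2 fold change ran from 0.02 without wild-type replicate 1 to 0.37, and under median-ratio scaling it was -0.23.

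Fold changes of named genes reversed under median-ratio scaling (Srsf3 -0.13, Hnrnpa2b1 -0.085, Sf3b1 -0.26, U2af2 -0.27, Snrpe -0.088), quantile normalization (U2af2 -0.89), the pseudocount of 0.1 (Snrpn 0.49) and name series as a block (Hnrnpa1 0.13, Snrpn 0.12, U2af2 -0.11). With 1 library left out, Srsf1 ran from -0.080 to 2.85, Srsf3 from -0.40 to 1.14, Hnrnpa1 from -0.58 to 0.25, Hnrnpk from -0.69 to 0.33, Sf3b1 from -0.17 to 0.66, Snrpn from -1.69 to 0.47, U2af2 from -0.81 to 0.88 and Sf3b6 from -0.83 to 0.18. Without a change of sign, Srsf7 ran from 0.047 to 1.32, U2af1 from 0.13 to 1.39, Snrpg from 0.036 to 1.34 and Zrsr2 from -2.09 to -0.11. The causes were not tested. Replicate numbers share only a number: deviations of same-numbered libraries correlated at -0.380 and -0.195. With them as a replicate block, 3 members were under an unadjusted p of 0.05, 0 were called, and Hnrnpa1 (0.18), Hnrnpk (0.11) and Snrpn (0.26) reversed.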
